A study of Homo sapiens with 36 samples.

Results

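Gene expression changes averaged over JEKO, MINO and UPN-1, 3 established mantle cell lymphoma lines, were measured after 72 h with GS716054, an inhibitor of the KDM5 histone lysine demethylases. All 18 RNA sequencing libraries taken at 72 h were used, of 36 in the series; the other 18 were taken at 24 h. At 72 h each line had 3 libraries from cells given GS716054 and 3 from cells given the vehicle DMSO, and the labels call the 3 of a group biological replicates. The cells grew in RPMI-1640 with fetal bovine serum, and the labels give no dose and no other agent. The effect was measured as GS716054 minus DMSO within each line and replicate number, which makes 9 pairs, and was then averaged over the lines.

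Mantle cell lymphoma is a cancer of mature B cells in which a translocation drives CCND1, the gene of cyclin D1. KDM5 enzymes take methyl groups off lysine 4 of histone H3, a mark that stands at the starts of active genes, so their inhibition is studied as a way to raise that mark and change which genes are read. Among the pathways followed here, ATF4 is a transcription factor that switches on amino acid synthesis, amino acid import and tRNA ligases when cells are short of amino acids or stressed. E2F factors drive the genes of DNA replication at the start of S phase, and the DREAM and MuvB complexes act through a short promoter element, the cell cycle homology region, on genes of mitosis. IRF4 and XBP1 lead B cells toward the antibody-secreting plasma cell.

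Gene reads ranged from 8784815 to 14970876 per library, and a count of 3 reads, the most that a count of 0 allows, corresponded to 0.200 to 0.342 CPM (reads scaled to the library's size). The lines held the B-cell genes CD79A, CD79B and MS4A1 and CCND1 among their highest markers, and CCND1 averaged 2519 CPM (JEKO), 2326 (MINO) and 2358 (UPN-1) with DMSO. A list of 18 T and NK cell genes summed to 270.9 to 372.4 CPM in the MINO DMSO libraries and 456.4 to 621.0 CPM with the inhibitor, led by TRBC2, TRAC and PRF1, with CD2, GZMA and GZMB at 0 in every group. In MINO, CD3D, CD3G and KLRD1 were also at 0 with either treatment. The T and NK sum was 206.6 to 284.6 CPM with DMSO and 221.4 to 252.5 CPM with the inhibitor in JEKO, and 98.5 to 147.9 CPM and 88.7 to 157.2 CPM in UPN-1. A list of 15 monocyte genes summed to 1.03 to 7.22 CPM over all groups. Of the 16 fibroblast, endothelial and epithelial genes, which summed to 14.04 to 21.9 CPM in MINO with DMSO and 31.8 to 42.6 CPM with the inhibitor, COL3A1, DCN, LUM, PDGFRA, CDH5 and KDR were at 0 in every group. Library replicate 2 lay apart from replicates 1 and 3 on the third principal component in every line, which held 4% of the variance. Less of a transcript per cell and fewer cells that make it cannot be told apart in such bulk RNA.

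Of the KDM5 genes, KDM5B was the 1 that passed the test. KDM5A averaged 0.04 ± 0.065 (edgeR's quasi-likelihood adjusted p = 0.75) and KDM5C -0.03 ± 0.065 (edgeR adjusted p = 0.842). These are log2 fold changes averaged over the 3 lines ± SE, as for all mean effects below. The SE comes from differences between pairs within lines, and it does not measure the spread between lines. KDM5B, a member that is raised in several cancers, averaged 0.36 ± 0.087 (edgeR adjusted p = 0.0112), with JEKO at 0.63, MINO at 0.06 and UPN-1 at 0.40, and its call was lost without JEKO (0.22, adjusted p = 0.0967) and without UPN-1 (adjusted p = 0.0826). KDM5B in JEKO measured 15.7, 55.4 and 26.01 CPM with DMSO and 36.4, 63.99 and 38.02 CPM with the inhibitor. KDM5B values in MINO were 66.8, 278 and 69.3 CPM with DMSO and 66.8, 265 and 82.3 CPM with the inhibitor. UPN-1 KDM5B stood at 49.7, 112 and 34.2 CPM with DMSO and 66.8, 124 and 52.9 CPM with the inhibitor. Replicate 2 was the highest for KDM5B in each line and treatment, and the treated and DMSO groups overlapped in all 3 lines. KDM5D had reads in MINO alone and gives no mean over lines. Of 21 other histone demethylase genes tested, 1 was called higher (4.8%, against 6.54% of all genes tested) and 0 lower. Of 37 histone lysine methylase genes and partners, 0 were called higher and 3 lower (8.1%, against 5.78% of all genes tested). Among the 3 was NSD2, which methylates lysine 36 of histone H3, at -0.35 ± 0.059 (edgeR adjusted p = 7.96e-04).

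Of 17713 genes tested, edgeR called 1158 higher (6.54%) and 1023 lower (5.78%) at a Benjamini-Hochberg adjusted p under 0.05. Of these, 932 of the higher (5.26% of all tested) and 859 of the lower (4.85%) had the same sign in all 3 lines. Without the pairing by replicate number the counts were 248 and 72. The median mean effect was 0.56 among the higher and -0.35 among the lower, and 230 higher but 35 lower genes changed by at least 1 on the log2 scale. The median DMSO level was 46.2 CPM for the lowered genes, against 13.2 CPM for the raised and 15.5 CPM for all genes tested. A gene could pass the low-count filter through its treated libraries alone, so part of this difference follows from how the genes were picked. MINO had the largest effect of the 3 lines in 736 of the 1158 higher and 710 of the 1023 lower genes.

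Within the lines the counts differed, with the most in MINO. JEKO had 293 genes called higher (1.65%) and 254 lower (1.43%), MINO 1630 higher (9.20%) and 1434 lower (8.10%), and UPN-1 178 higher (1.00%) and 34 lower (0.192%). Called in each of the 3 lines were 32 genes higher (0.181%) and 7 lower (0.0395%). Higher in 9 of 9 pairs were 422 genes (2.38%), and 421 were lower in 9 of 9 (2.38%). Treated and DMSO libraries did not overlap in any of the 3 lines for 68 genes with the treated ones higher (0.384%) and 16 with the treated ones lower (0.0903%). The effect differed among the lines in 965 genes (5.45%), among them 274 of those called higher in the mean and 181 of those called lower.

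**Figure D1:**
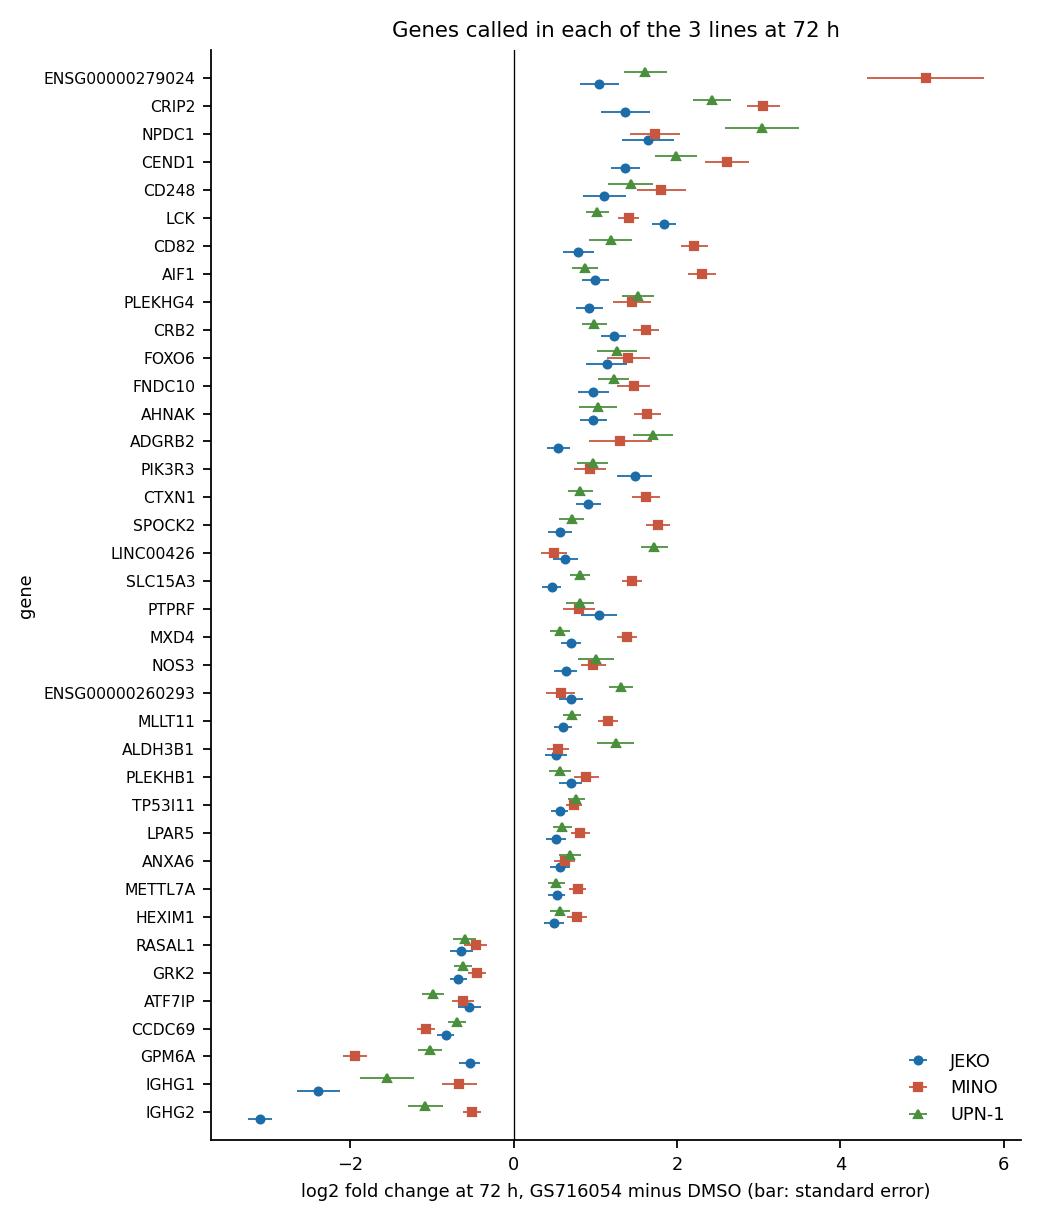
Log2 fold change at 72 h (x axis) in JEKO (circles), MINO (squares) and UPN-1 (triangles), with bars of 1 standard error, for genes called in each of the 3 lines (y axis, ordered by the mean over lines). CRIP2 stands near the top, with a mean of 2.28, and IGHG2 at the bottom, with -1.56.

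The 32 shared raised genes were led by CRIP2, NPDC1, CEND1, CD248 and LCK, and 31 of them rose in 9 of 9 pairs. They comprise 29 protein-coding genes, and 30 carry a symbol. Their mean effects ran from 0.61 to 2.57, the largest being a gene known by its identifier alone, ENSG00000279024. In 14 of them the treated and DMSO libraries did not overlap in any line, 30 were also called higher at 24 h, and the size differed among the lines in 9. All 39 shared genes kept their call in the mean when any 1 pair or any 1 line was left out. They had been picked as called in each line of the same fit, so this result was nearly given by the choice. The call in every line was less stable when 1 pair was left out. Without UPN-1 replicate 1 it was kept by 6 of the 32 raised genes and 0 of the lowered. Without MINO replicate 2 it was kept by 30 raised and 6 lowered genes.

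CRIP2 (chr14:105472962-105480162, GRCh38), which encodes a cysteine-rich LIM domain protein, rose by 2.28 ± 0.14 (edgeR adjusted p = 4.39e-08). CRIP2 in JEKO measured 1.12, 2.61 and 2.21 CPM with DMSO and 2.77, 6.26 and 6.32 CPM with the inhibitor. CRIP2 values in MINO were 16.9, 66.9 and 18.9 CPM with DMSO and 216, 336 and 179 CPM with the inhibitor. UPN-1 CRIP2 stood at 2.78, 6.55 and 4.56 CPM with DMSO and 22.6, 28.8 and 21.6 CPM with the inhibitor. Every treated library lay above every DMSO library of its line, though the size differed among the lines, with JEKO at 1.37, MINO at 3.06 and UPN-1 at 2.43. LCK (chr1:32251244-32286165), a Src family kinase best known for T-cell receptor signalling and also found in some B-cell malignancies, rose by 1.43 ± 0.081 (edgeR adjusted p = 3.97e-08). LCK in JEKO measured 15.1, 8.07 and 6.25 CPM with DMSO and 45.8, 37.8 and 20.6 CPM with the inhibitor. LCK values in MINO were 88.9, 172 and 91.5 CPM with DMSO and 258, 380.3 and 269.6 CPM with the inhibitor. UPN-1 LCK stood at 20.9, 20.97 and 15.8 CPM with DMSO and 41.4, 51.4 and 27.1 CPM with the inhibitor. Here too the groups did not overlap in any line, with JEKO at 1.84, MINO at 1.41 and UPN-1 at 1.02. The T and NK marker sum given above did not overlap between treatments in MINO and overlapped in JEKO and UPN-1, and its part in the LCK values was not tested.

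The promoters of CRIP2 and LCK are shown because, of the 3 raised genes with the smallest p, these are the ones called higher in every line. Their sequences are the 250 bases before the RefSeq start (GRCh38.p14) on the gene's strand, with CpG dinucleotides in capitals (CRIP2 at chr14:105472695-105472944, plus strand; LCK at chr1:32251015-32251264, plus strand).
CRIP2 promoter: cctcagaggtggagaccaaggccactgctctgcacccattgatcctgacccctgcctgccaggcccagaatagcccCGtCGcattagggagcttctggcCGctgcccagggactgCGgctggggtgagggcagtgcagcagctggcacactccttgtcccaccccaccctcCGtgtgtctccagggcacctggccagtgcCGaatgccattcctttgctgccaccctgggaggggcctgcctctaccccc
LCK promoter: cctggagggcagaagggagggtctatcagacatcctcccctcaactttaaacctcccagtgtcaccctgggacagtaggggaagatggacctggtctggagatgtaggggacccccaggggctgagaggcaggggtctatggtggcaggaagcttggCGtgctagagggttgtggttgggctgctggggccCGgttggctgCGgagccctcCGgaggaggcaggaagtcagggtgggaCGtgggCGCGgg
CRIP2 has 6 CpG in this window and LCK 7. Promoters were found for 25 of the 32 shared raised genes, and their median was 17 CpG, against 21 for 11566 promoters of genes tested and 11 for all 35114 promoters in the table. For the 813 promoters of genes called higher in the mean the median was also 21.

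Other genes called higher in every line follow, grouped for reading only, since no list holds them together. CEND1 (chr11:787115-790113), a protein of neuronal precursors that leave the cell cycle, rose by 1.99 ± 0.14 (edgeR adjusted p = 1.32e-07). CEND1 in JEKO measured 13.4, 11.1 and 12.2 CPM with DMSO and 31.5, 28.9 and 34.2 CPM with the inhibitor. CEND1 values in MINO were 1.11, 0.882 and 1.010 CPM with DMSO and 6.07, 7.11 and 5.66 CPM with the inhibitor. UPN-1 CEND1 stood at 1.06, 0.468 and 2.37 CPM with DMSO and 4.04, 4.04 and 6.99 CPM with the inhibitor. No treated CEND1 library overlapped with DMSO, and the level began low in MINO and UPN-1. NPDC1, named for neural proliferation and differentiation, rose by 2.14 ± 0.21 and ADGRB2, an adhesion receptor of the brain, by 1.19 ± 0.16. CRB2 (chr9:123356170-123380324), a polarity protein of epithelia, rose by 1.28 ± 0.089 (edgeR adjusted p = 1.32e-07), with JEKO at 1.23, MINO at 1.62 and UPN-1 at 0.99. CRB2 in JEKO measured 11.3, 10.3 and 8.47 CPM with DMSO and 22.5, 25.7 and 21.96 CPM with the inhibitor. CRB2 values in MINO were 6.74, 10.4 and 7.001 CPM with DMSO and 21.9, 31.2 and 21.1 CPM with the inhibitor. UPN-1 CRB2 stood at 9.31, 15.3 and 9.80 CPM with DMSO and 23.6, 25.1 and 18.7 CPM with the inhibitor. The 9 treated CRB2 values all lay above the DMSO values of their line. CEND1, NPDC1, ADGRB2 and CRB2 are not members of the list of neuronal genes. Of the 52 genes of that list 26 were tested, and a gene could pass the low-count filter through its treated libraries alone. Over the 26, 5 were called higher (19.2%, against 6.54% of all genes tested) and 0 lower. Their median was 0.35, against -0.004 over all genes tested. The list's medians were 0.36 (JEKO), -0.0 (MINO) and 0.41 (UPN-1), and 11 of the 26 lay above 0 in every line. The members called in the mean include KCNH2 (0.69, 0.34 without MINO), a potassium channel, and CPLX1 (0.77), a regulator of synaptic vesicle release. That list's count was 2 without JEKO and 9 without MINO.

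**Figure D2:**
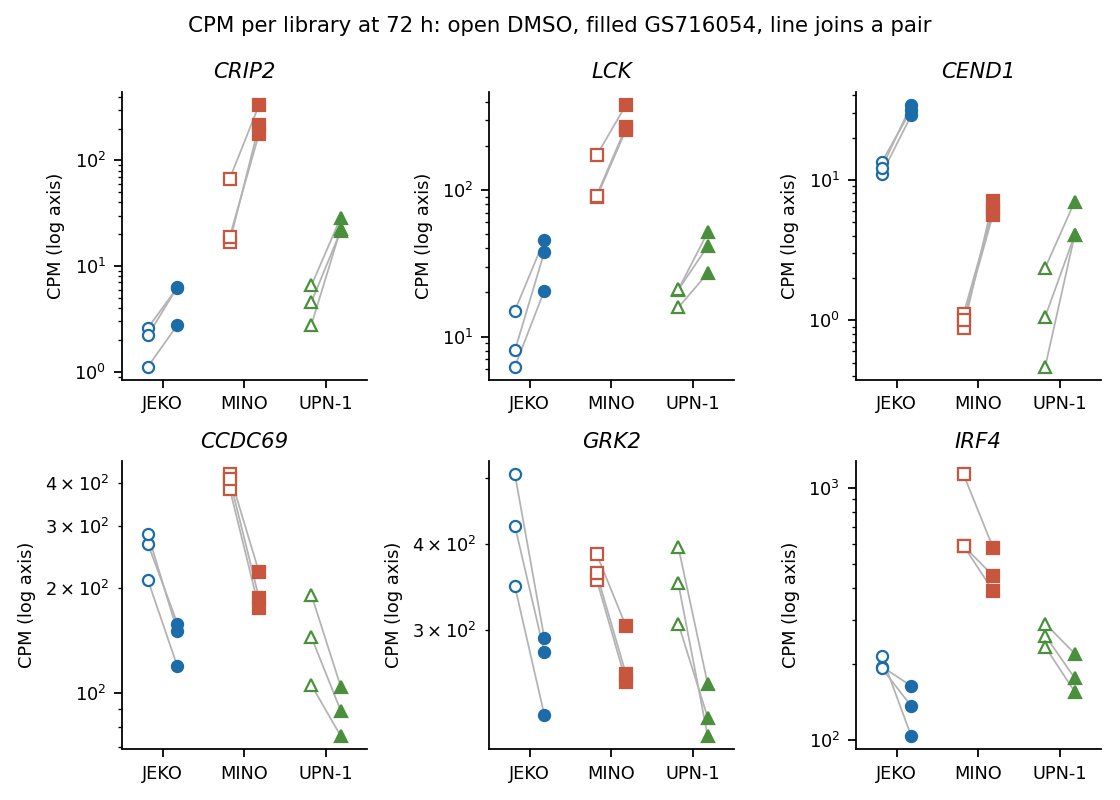
Normalised read counts (CPM, log axis) of CRIP2, LCK, CEND1, CCDC69, GRK2 and IRF4 in each of the 18 libraries at 72 h, by line, with DMSO (open) and GS716054 (filled) beside each other and a grey line joining each pair. In CRIP2, LCK and CEND1 every treated point lies above the DMSO points of its line, and in CCDC69, GRK2 and IRF4 every one lies below.

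CD248, a transmembrane glycoprotein best known from stromal and naive T cells, rose by 1.45 ± 0.16, with no overlap between treated and DMSO libraries in any line. CD82, a tetraspanin, rose by 1.40 ± 0.12, and AIF1, a calcium-binding protein of macrophages, by 1.39 ± 0.096 (0.93 without MINO). SLC15A3, a lysosomal peptide and histidine transporter, rose by 0.91 ± 0.071 with no overlap in any line. PIK3R3, a regulatory subunit of phosphoinositide 3-kinase, rose by 1.13 ± 0.12, most in JEKO (1.48). SPOCK2, an extracellular proteoglycan, rose by 1.02 ± 0.086 (0.63 without MINO). The long noncoding RNA LINC00426 rose by 0.95 ± 0.091, with JEKO at 0.63, MINO at 0.49 and UPN-1 at 1.72, and by 0.56 without UPN-1. It is the shared raised gene that rose in 8 rather than 9 pairs.

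MXD4, which opposes MYC for its partner MAX, rose by 0.89 ± 0.072 (edgeR adjusted p = 8.30e-07), with no overlap in any line. Of the 12 genes tested in the MYC, MAX and MXD network it was the 1 called higher, with 1 called lower. That is 8.3% each, near the 6.54% and 5.78% of all genes tested. HEXIM1, which holds the elongation factor P-TEFb inactive, rose by 0.61 ± 0.071; 14.3% of its exon length overlaps an opposite-strand gene. TP53I11, a p53-inducible gene, rose by 0.69 ± 0.059, and FOXO6, a forkhead factor, by 1.27 ± 0.15. MLLT11, a fusion partner of the leukaemia gene KMT2A, rose by 0.83 ± 0.065. Others of the 30 with a symbol also rose, namely PLEKHG4 (1.30), FNDC10 (1.22), AHNAK (1.22), CTXN1 (1.12), PTPRF (0.89), NOS3 (0.88), ALDH3B1 (0.77), PLEKHB1 (0.72), LPAR5 (0.65), ANXA6 (0.63) and METTL7A (0.61). Opposite-strand exons cover 10.2% of CTXN1 and 13.3% of NOS3, and as the strand setting of the counting is not given in the sources used here, their levels are uncertain.

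The 7 genes lowered in each line were CCDC69, GRK2, GPM6A, ATF7IP, RASAL1, IGHG1 and IGHG2. CCDC69 (chr5:151181052-151224093), a coiled-coil protein of the central spindle, fell by 0.86 ± 0.062 (edgeR adjusted p = 2.05e-07). CCDC69 in JEKO measured 210.0, 267 and 284 CPM with DMSO and 119, 158 and 150.0 CPM with the inhibitor. CCDC69 values in MINO were 385, 422 and 409 CPM with DMSO and 175, 221 and 187 CPM with the inhibitor. UPN-1 CCDC69 stood at 144, 105 and 191 CPM with DMSO and 88.7, 75.1 and 104 CPM with the inhibitor. The groups did not overlap in any line, and the mean effect was -1.01 at 24 h. GRK2 (chr11:67266473-67286556), a kinase that shuts off G protein-coupled receptors such as the chemokine receptors, averaged -0.58 ± 0.061 (edgeR adjusted p = 1.10e-05). GRK2 in JEKO measured 347, 506 and 425 CPM with DMSO and 225, 292 and 278 CPM with the inhibitor. GRK2 values in MINO were 355, 363 and 387 CPM with DMSO and 252, 258 and 304 CPM with the inhibitor. UPN-1 GRK2 stood at 396, 351 and 306 CPM with DMSO and 249.9, 209.7 and 223 CPM with the inhibitor. GRK2 was likewise lower in every treated library than in any DMSO library of its line.

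GPM6A (chr4:175632934-176002664), a membrane glycoprotein best known from neurons, averaged -1.17 ± 0.081 (edgeR adjusted p = 1.32e-07). GPM6A in JEKO measured 110.4, 221 and 192 CPM with DMSO and 71.6, 175 and 122 CPM with the inhibitor. GPM6A values in MINO were 52.2, 56.7 and 51.03 CPM with DMSO and 15.3, 10.5 and 16.1 CPM with the inhibitor. UPN-1 GPM6A stood at 48.1, 52.9 and 29.9 CPM with DMSO and 24.8, 29.04 and 12.3 CPM with the inhibitor. GPM6A fell in 9 of 9 pairs and by differing amounts, with JEKO at -0.54, MINO at -1.94 and UPN-1 at -1.02, and the JEKO groups overlapped. ATF7IP, a partner of the H3K9 methylase SETDB1, averaged -0.71 ± 0.079 (edgeR adjusted p = 1.59e-05), and RASAL1, a Ras GTPase-activating protein, -0.57 ± 0.081. Of 22 genes of heterochromatin silencing, 0 were called higher and 4 lower (18.2%, against 5.78% of all genes tested), with a median of -0.05. DNMT1, the maintenance DNA methylase, averaged -0.33 ± 0.062 (edgeR adjusted p = 0.00188).

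The immunoglobulin heavy chain genes IGHG1 (-1.53 ± 0.16) and IGHG2 (-1.56 ± 0.095; -0.80 without JEKO) were lower in 9 of 9 pairs. IGHG2 in JEKO measured 40.4, 19.7 and 15.3 CPM with DMSO and 3.998, 2.61 and 1.92 CPM with the inhibitor. IGHG2 values in MINO were 131, 221 and 138 CPM with DMSO and 86.1, 140.1 and 115 CPM with the inhibitor. UPN-1 IGHG2 stood at 3.43, 3.46 and 2.71 CPM with DMSO and 1.62, 1.54 and 1.37 CPM with the inhibitor. IGHG2 stood lowest in UPN-1, where it was 2.71 to 3.46 CPM with DMSO and 1.37 to 1.62 CPM with the inhibitor. These genes are near-identical copies, so the split of reads between them is uncertain.

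The ATF4 list was the gene group with the highest share lowered. Of 48 genes tested of ATF4 response, serine synthesis and tRNA ligases, 38 were called lower and 0 higher, or 79.2% against the 5.78% of all genes, and the median was -0.50 against -0.004. Of the 38, 34 had the same sign in all 3 lines. The list's medians were -0.31 (JEKO), -0.94 (MINO) and -0.21 (UPN-1), the effect differed among the lines in 20 of the 48, and without MINO 21 rather than 38 were called lower. At 24 h 16 were called lower and 3 higher, with a median of -0.13. Without the pairing by replicate number 5 of the 48 were called lower, and 30 had an unadjusted p under 0.05.

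Promoters of the lowered members were searched for the composite letters that ATF4 and a C/EBP partner bind. TGATGNAA was searched on both strands in the 250 bases before the start, and it was present in 5 of the 30 lowered members with a promoter in the table (16.67%), ATF3, CHAC1, ASNS, AARS1 and IARS1, against 3.14% of all promoters and 1.43% of those of genes tested. The members were listed as known targets, so this share describes the list. Of the 5, CHAC1 (at chr15:40953221-40953470, plus strand), AARS1 (chr16:70289507-70289756, minus strand) and IARS1 (chr9:92293698-92293947, minus strand) are printed, chosen after their values were seen, with the match in capitals, in each case the reverse complement.
CHAC1 promoter: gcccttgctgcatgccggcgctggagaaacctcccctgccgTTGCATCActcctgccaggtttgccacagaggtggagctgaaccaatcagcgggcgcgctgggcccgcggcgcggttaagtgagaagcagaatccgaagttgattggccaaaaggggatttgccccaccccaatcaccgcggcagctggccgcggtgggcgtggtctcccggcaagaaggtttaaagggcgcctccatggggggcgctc
AARS1 promoter: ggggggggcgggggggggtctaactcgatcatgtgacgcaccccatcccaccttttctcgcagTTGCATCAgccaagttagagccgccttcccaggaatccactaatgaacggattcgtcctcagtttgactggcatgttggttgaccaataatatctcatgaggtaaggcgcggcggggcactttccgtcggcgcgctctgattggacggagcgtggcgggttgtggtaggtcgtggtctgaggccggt
IARS1 promoter: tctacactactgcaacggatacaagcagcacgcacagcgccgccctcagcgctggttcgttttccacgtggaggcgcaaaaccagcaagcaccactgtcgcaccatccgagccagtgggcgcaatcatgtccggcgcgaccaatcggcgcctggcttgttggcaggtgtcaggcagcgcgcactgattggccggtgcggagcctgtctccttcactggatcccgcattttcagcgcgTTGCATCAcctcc
The match begins 209 bases before the start in CHAC1, 187 in AARS1 and 13 in IARS1.

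ATF4 mRNA itself (chr22:39519695-39522683; named after its values were seen) averaged -0.57 ± 0.074 (edgeR adjusted p = 7.81e-05; -0.33 without MINO). ATF4 in JEKO measured 623, 281 and 507 CPM with DMSO and 461, 219 and 411 CPM with the inhibitor. ATF4 values in MINO were 394, 578 and 449.5 CPM with DMSO and 236, 253 and 181 CPM with the inhibitor. UPN-1 ATF4 stood at 562, 348 and 416 CPM with DMSO and 379, 321 and 381 CPM with the inhibitor. ATF4 fell in 9 of 9 pairs, and in MINO the groups did not overlap. CHAC1, which degrades glutathione, averaged -1.04 ± 0.18, with JEKO at -0.22, MINO at -1.72 and UPN-1 at -1.19. The alanine and isoleucine tRNA ligases AARS1 and IARS1 averaged -0.56 ± 0.069 and -0.50 ± 0.068 (-0.27 without MINO), lower in 9 of 9 pairs each. PHGDH, the first enzyme of serine synthesis, averaged -0.95 ± 0.084 (edgeR adjusted p = 1.60e-06; -0.51 without MINO). PHGDH in JEKO measured 478, 241 and 634 CPM with DMSO and 429.6, 124 and 336 CPM with the inhibitor. PHGDH values in MINO were 398, 280.4 and 448 CPM with DMSO and 124, 72.3 and 116 CPM with the inhibitor. UPN-1 PHGDH stood at 435, 253 and 291 CPM with DMSO and 295, 208 and 265 CPM with the inhibitor. Each treated PHGDH library was below its DMSO partner, and the 2 groups were apart in MINO alone.

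Other members with the largest decreases were transporters, regulators and a secreted factor. SLC6A9, a glycine transporter, averaged -1.35 ± 0.12 (edgeR adjusted p = 2.07e-06), with JEKO at -0.75, MINO at -2.55 and UPN-1 at -0.75 and -0.76 without MINO. ATF3, a stress-induced repressor, averaged -1.17 ± 0.12 (-0.68 without MINO), and ATF5, a related activator, -0.86 ± 0.10; opposite-strand exons cover 19.5% of ATF5. INHBE, a subunit of activin, averaged -1.58 ± 0.16, but its MINO value was -3.99, and without MINO it was -0.40 (edgeR adjusted p = 0.132). ASS1 (chr9:130444961-130501274), the enzyme that makes argininosuccinate for arginine synthesis, had one of the 3 smallest adjusted p values of the lowered genes (1.32e-07, edgeR) and averaged -1.83 ± 0.13, or -0.86 without MINO. ASS1 in JEKO measured 594, 71.2 and 436 CPM with DMSO and 442, 29.2 and 115 CPM with the inhibitor. ASS1 values in MINO were 179, 214 and 207 CPM with DMSO and 10.8, 21.9 and 11.8 CPM with the inhibitor. UPN-1 ASS1 stood at 67.8, 40.1 and 26.3 CPM with DMSO and 41.6, 29.7 and 21.3 CPM with the inhibitor. ASS1 fell in 9 of 9 pairs, separated from DMSO in MINO and overlapped in JEKO and UPN-1.

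**Figure D3:**
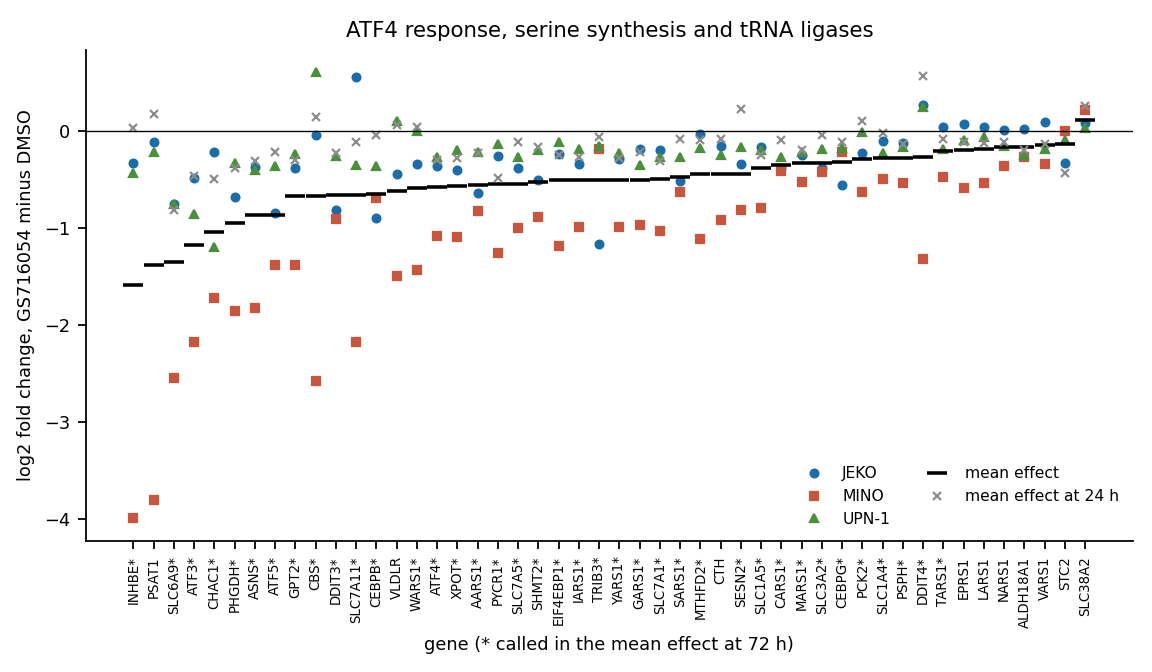
Log2 fold change (y axis) of the 48 tested genes of the ATF4 list at 72 h in JEKO (circles), MINO (squares), UPN-1 (triangles) and their mean (bars), and the mean at 24 h (crosses); an asterisk marks a gene called in the mean at 72 h. The median of the mean effect is -0.13 at 24 h and -0.50 at 72 h, and MINO is the lowest line in most genes at the left.

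Genes of DNA replication, mitosis and DNA repair had medians below 0 in all 3 lines. Of 51 replication genes tested, 30 were called lower (58.8%, against 5.78% of all genes tested) and 0 higher, with a median of -0.27. Below 0 in every line were 41, and the effect on 0 of the 51 differed among the lines. Of 50 mitotic genes, 22 were called lower and 0 higher, with a median of -0.33, and 42 were below 0 in every line. Of 36 DNA repair genes, 15 were lower (41.7%) and 0 higher, with a median of -0.21. At 24 h 36 replication genes, 16 mitotic genes and 14 repair genes had been called lower, with medians of -0.21, -0.12 and -0.18. The replication count was 11 without JEKO, 19 without UPN-1, 16 without UPN-1 replicate 1 and 19 without UPN-1 replicate 2. The mitotic count ranged from 10 without UPN-1 replicate 2 to 38 without MINO replicate 1; it was 10 without UPN-1, 14 without JEKO replicate 1, UPN-1 replicate 1 or UPN-1 replicate 3, and 13 without JEKO replicate 2. Without replicate 2 of every line, a choice made after the principal components were seen, 13 replication and 5 mitotic genes were called lower. The repair count was 7 without JEKO. Without the pairing by replicate number edgeR called 0 members of these 3 lists, and 7 replication, 4 mitotic and 7 repair genes had an unadjusted p under 0.05 and lay below 0.

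Among replication genes, CDT1 (chr16:88803789-88809258), which loads the MCM helicase at origins, averaged -0.71 ± 0.091 (edgeR adjusted p = 6.84e-05). CDT1 in JEKO measured 134, 209.6 and 257 CPM with DMSO and 45.1, 116 and 140.0 CPM with the inhibitor. CDT1 values in MINO were 79.5, 83.7 and 101 CPM with DMSO and 58.3, 33.7 and 62.5 CPM with the inhibitor. UPN-1 CDT1 stood at 235, 176 and 136 CPM with DMSO and 183, 143 and 134 CPM with the inhibitor. CDT1 was lower in 9 of 9 pairs, with overlap between the groups in JEKO and UPN-1. TK1, which makes thymidine monophosphate, averaged -0.60 ± 0.10, ORC1, a subunit of the origin recognition complex, -0.50 ± 0.10, and RFC3, a subunit of the clamp loader, -0.50 ± 0.086. Of the mitotic genes, TOP2A (chr17:40388525-40417896), which untangles sister chromatids, averaged -0.44 ± 0.090 (edgeR adjusted p = 0.00364). TOP2A in JEKO measured 131, 349 and 327 CPM with DMSO and 82.6, 237 and 282 CPM with the inhibitor. TOP2A values in MINO were 630.5, 618 and 689 CPM with DMSO and 608, 286 and 430.3 CPM with the inhibitor. UPN-1 TOP2A stood at 583, 701 and 830.5 CPM with DMSO and 506, 578 and 710.2 CPM with the inhibitor. TOP2A was lower in 9 of 9 pairs, while the JEKO DMSO libraries differed among themselves by more than the treatment. SPC25, a kinetochore protein, averaged -0.61 ± 0.10 and KIF2C, a kinesin that takes microtubules apart, -0.49 ± 0.11. POLQ, the polymerase of end joining by microhomology, averaged -0.54 ± 0.090 (-0.35 without MINO). CDK2, the kinase of cyclins E and A, averaged -0.33 ± 0.064, with 16.8% of its exon length under opposite-strand exons, and the p53 targets CCNG1 and DDB2 averaged -0.43 ± 0.070 and -0.48 ± 0.079.

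The promoters of these groups were searched for elements that E2F and the cell cycle complexes use. The E2F letters TTTCCCGC, searched on both strands, were in 6 of 27 lowered replication genes with a promoter (22.22%), against 1.39% of all promoters and 2.16% of those of genes tested. The cell cycle homology region TTTGAA was in 11 of 18 lowered mitotic genes (61.11%), against 13.32% and 8.6%, and CCAAT in 13 of 18 (72.22%), against 32.01% and 34.74%. CCAAT was in 14 of the 27 replication promoters as well. The lists hold known targets of these factors, so the shares describe the lists. CDT1 (at chr16:88803539-88803788, plus strand), RFC3 (chr13:33817899-33818148, plus strand) and TOP2A (chr17:40417897-40418146, minus strand) are printed as examples, RFC3 chosen after its values were seen, with the E2F letters of CDT1 and RFC3 (as reverse complement) and the TTTGAA matches of TOP2A on either strand in capitals.
CDT1 promoter: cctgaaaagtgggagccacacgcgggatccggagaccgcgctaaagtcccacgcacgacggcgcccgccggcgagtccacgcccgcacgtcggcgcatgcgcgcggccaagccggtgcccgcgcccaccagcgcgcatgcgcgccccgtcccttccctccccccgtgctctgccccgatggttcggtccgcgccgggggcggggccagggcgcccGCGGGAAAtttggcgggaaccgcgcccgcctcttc
RFC3 promoter: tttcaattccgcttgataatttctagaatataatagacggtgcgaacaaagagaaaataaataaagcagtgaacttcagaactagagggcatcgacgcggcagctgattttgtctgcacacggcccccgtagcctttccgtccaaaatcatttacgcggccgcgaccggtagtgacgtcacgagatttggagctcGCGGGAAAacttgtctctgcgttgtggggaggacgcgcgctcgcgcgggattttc
TOP2A promoter: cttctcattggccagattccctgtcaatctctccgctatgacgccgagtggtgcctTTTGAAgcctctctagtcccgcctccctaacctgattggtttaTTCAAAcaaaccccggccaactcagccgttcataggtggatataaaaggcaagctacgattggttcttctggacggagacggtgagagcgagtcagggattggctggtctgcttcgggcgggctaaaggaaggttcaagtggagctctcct
The E2F match begins 35 bases before the start in CDT1 and 55 in RFC3, and the TOP2A matches begin 194 and 151 bases before it.

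**Figure D4:**
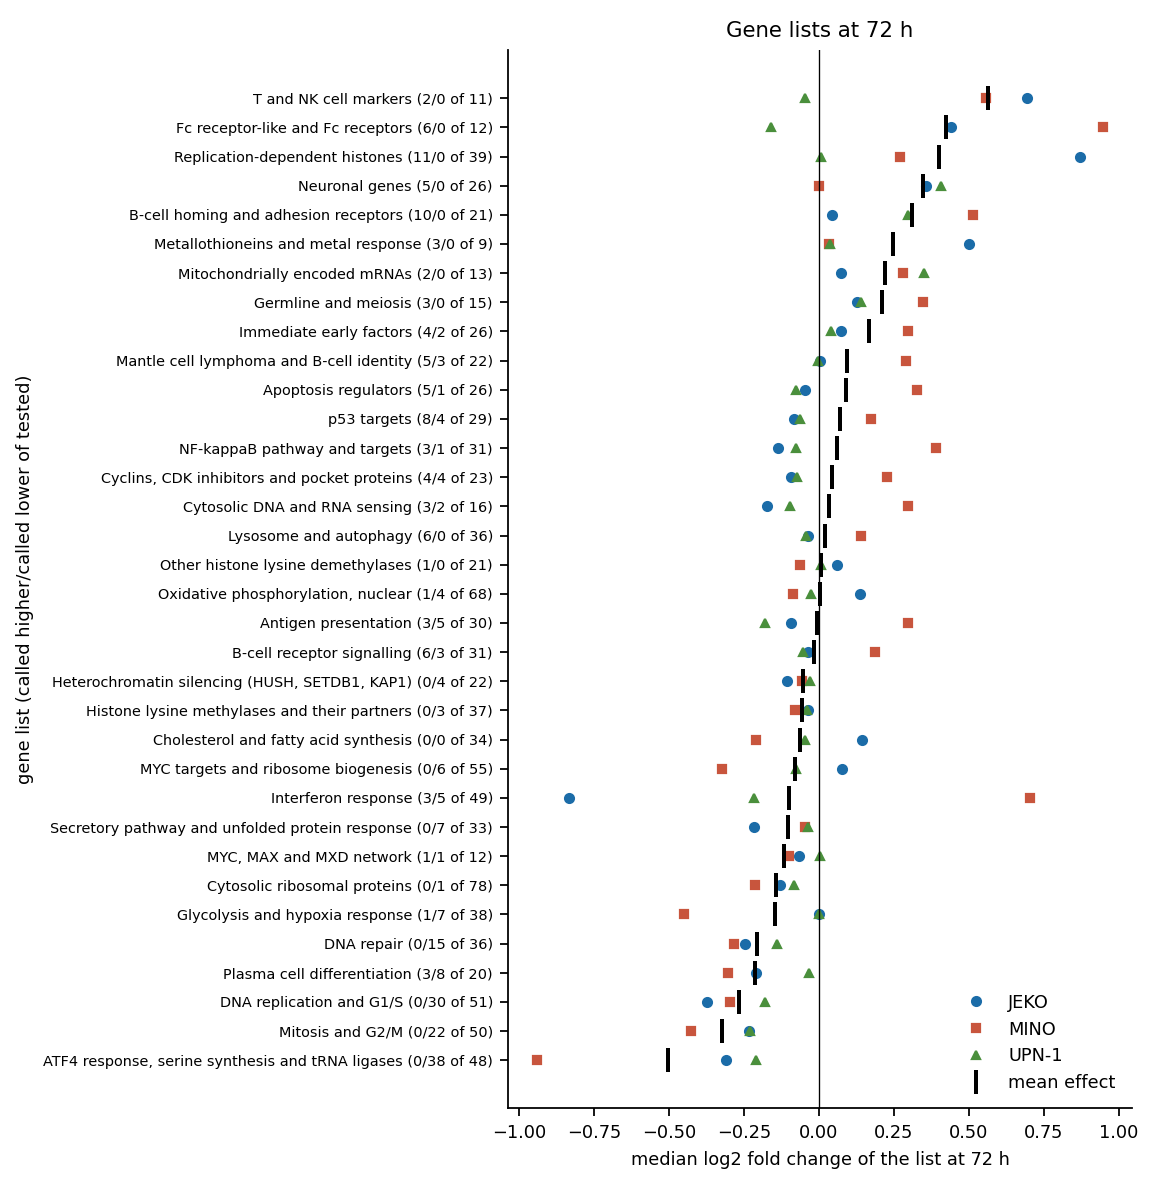
Median log2 fold change at 72 h (x axis) of each gene list with at least 9 members tested (y axis), in JEKO (circles), MINO (squares), UPN-1 (triangles) and in the mean effect (bars), with the members called higher and lower of those tested in parentheses. The ATF4 list has the lowest median of the mean effect, -0.50, and the interferon list the widest spread over lines, from -0.84 in JEKO to 0.71 in MINO.

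Genes of plasma cell differentiation and secretion were lowered in part, and some plasma cell genes were raised. Of 20 plasma cell genes, 8 were called lower and 3 higher, with a median of -0.21. Of the 8, 7 had the same sign in every line, and of the 3, 1 did. Both shares were above those of all genes tested, 5.78% lower and 6.54% higher. The plasma cell members named below are all lowered ones. Of 33 genes of the secretory pathway and unfolded protein response, 7 were lower and 0 higher, with a median of -0.11. The plasma cell medians were -0.21 (JEKO), -0.30 (MINO) and -0.03 (UPN-1). The secretory medians were -0.22 (JEKO), -0.05 (MINO) and -0.04 (UPN-1). IRF4 (chr6:391739-411443), the factor that drives plasma cell differentiation and survival of many B-cell cancers, averaged -0.59 ± 0.083 (edgeR adjusted p = 1.68e-04) and was below 0 in each line, with JEKO at -0.60, MINO at -0.65 and UPN-1 at -0.51. IRF4 in JEKO measured 195, 192 and 215 CPM with DMSO and 164, 136 and 104 CPM with the inhibitor. IRF4 values in MINO were 589, 1130.0 and 589 CPM with DMSO and 448, 579.5 and 391 CPM with the inhibitor. UPN-1 IRF4 stood at 289, 259 and 234 CPM with DMSO and 220.1, 176 and 155 CPM with the inhibitor. IRF4 was lower in 9 of 9 pairs, and the treated and DMSO groups did not overlap in any line. TNFRSF17, the BCMA receptor of plasma cells, averaged -0.98 ± 0.14 (edgeR adjusted p = 2.61e-04). TNFRSF17 in JEKO measured 31.9, 15.2 and 17.6 CPM with DMSO and 13.5, 8.43 and 8.03 CPM with the inhibitor. TNFRSF17 values in MINO were 46.6, 131 and 42.8 CPM with DMSO and 26.2, 36.9 and 34.3 CPM with the inhibitor. UPN-1 TNFRSF17 stood at 12.98, 7.96 and 6.93 CPM with DMSO and 8.48, 5.82 and 1.93 CPM with the inhibitor. TNFRSF17 fell in every pair, and the groups were apart in JEKO and MINO. CD38, an ectoenzyme of plasma cells, averaged -0.55 ± 0.092, and XBP1 and its activating nuclease ERN1 averaged -0.51 ± 0.074 (-0.33 without MINO) and -0.72 ± 0.12. EDEM1, which hands misfolded glycoproteins to degradation, averaged -0.51 ± 0.094. Without the pairing by replicate number edgeR called 1 plasma cell member lower and 1 higher, and 0 secretory members. In each of these 2 lists 5 members then had an unadjusted p under 0.05 and lay below 0. Plasma cell members called lower numbered 5 without JEKO. Secretory members called lower numbered 3 without JEKO, JEKO replicate 3, UPN-1 replicate 1 or UPN-1 replicate 3, and 4 without UPN-1, JEKO replicate 2 or UPN-1 replicate 2.

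Among B-cell surface genes, MS4A1 and CD79A were raised. MS4A1 (chr11:60455846-60470752), which encodes CD20, rose by 0.65 ± 0.086 (edgeR adjusted p = 9.91e-05), with JEKO at 0.58, MINO at 0.77 and UPN-1 at 0.59. MS4A1 in JEKO measured 201, 333 and 268 CPM with DMSO and 369.6, 406 and 402 CPM with the inhibitor. MS4A1 values in MINO were 739, 782 and 690.2 CPM with DMSO and 1273, 1043 and 1476 CPM with the inhibitor. UPN-1 MS4A1 stood at 336, 278 and 443 CPM with DMSO and 482, 514 and 574 CPM with the inhibitor. All treated MS4A1 libraries were above the DMSO libraries of their line. CD79A, a signalling chain of the B-cell receptor, rose by 0.58 ± 0.069 (0.31 without MINO), and CD52, a small surface glycoprotein named after its values were seen, by 0.91 ± 0.11. CD81, a tetraspanin of the B-cell surface, averaged -0.39 ± 0.071, and NFATC1, a calcium-dependent factor, -0.52 ± 0.063. Over whole lists the picture was mixed, and counts are read beside 6.54% higher and 5.78% lower of all genes tested. Of 22 mantle cell and B-cell identity genes 5 were higher (22.7%) and 3 lower (13.6%). Of 31 B-cell receptor genes 6 were higher (19.4%) and 3 lower (9.7%). Of 21 homing and adhesion receptors 10 were higher (47.6%) and 0 lower (median 0.31), but 2 of the 10 had the same sign in every line. One of these is the cannabinoid receptor CNR2, which B cells carry, which rose by 1.99 ± 0.18 (1.31 without MINO). Of 12 Fc receptor-like and Fc receptor genes 6 were higher and 0 lower, with medians of 0.44 (JEKO), 0.95 (MINO) and -0.16 (UPN-1), and without MINO edgeR called 0 of them, with 2 at an unadjusted p under 0.05.

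Replication-dependent histone genes, whose mRNAs normally lack a poly(A) tail, were raised in part. Of 39 tested, 11 were called higher (28.2%, against 6.54% of all genes tested) and 0 lower, 7 of the 11 with the same sign in every line. The list's medians were 0.87 (JEKO), 0.27 (MINO) and 0.01 (UPN-1). H2AC6 rose by 1.26 ± 0.10 in the mean (0.57 without MINO), with JEKO at 1.12, MINO at 2.61 and UPN-1 at 0.04. H2AC6 in JEKO measured 25.5, 28.4 and 16.9 CPM with DMSO and 51.4, 57.2 and 43.1 CPM with the inhibitor. H2AC6 values in MINO were 2.94, 34.7 and 2.29 CPM with DMSO and 14.9, 194 and 19.7 CPM with the inhibitor. UPN-1 H2AC6 stood at 2.53, 4.59 and 3.72 CPM with DMSO and 2.10, 6.31 and 3.13 CPM with the inhibitor. In MINO replicate 2 was far above the others under both treatments, and in UPN-1 the groups overlapped. H2BC5, named after its values were seen, averaged 1.37 ± 0.14, with JEKO at 1.26, MINO at 2.96 and UPN-1 at -0.10, 0.57 without MINO and 2.09 without UPN-1. The list's count was 5 without JEKO and 7 without MINO.

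Smaller lists gave a few members that moved alike. Their counts are read beside 6.54% higher and 5.78% lower of all genes tested. The low-count filter left 9 of 14 metal response genes listed, 15 of 48 germline genes and 11 of 18 T and NK genes. A gene could pass that filter through its treated libraries alone, which favours counts of raised members. HMOX1, the haem-degrading enzyme of oxidative stress, rose by 1.26 ± 0.11 (edgeR adjusted p = 1.19e-06), and 3 of 9 genes of metal response were higher (33.3%). BTG2 and CDKN1C, which restrain the cell cycle, rose by 0.62 ± 0.065 and 0.73 ± 0.14 (0.27 and 0.37 without MINO). EGR2, an immediate early factor, rose by 0.80 ± 0.12, with 4 of 26 such genes higher (15.4%) and 2 lower (7.7%). REC8, a meiotic cohesin, rose by 0.56 ± 0.072, with 3 of 15 germline genes higher (20.0%) and 0 lower. PRF1, the pore-forming protein of killer lymphocytes, rose by 0.56 ± 0.088, with 2 of 11 T and NK genes higher (18.2%) and 0 lower. PRF1 is itself among the genes that lead the marker sum above in MINO, and the part of that sum was not tested. LGALS3BP, a secreted glycoprotein of the interferon response, rose by 0.84 ± 0.072 (0.33 without MINO). NDUFV1 and SDHA, subunits of respiratory complexes I and II, averaged -0.42 ± 0.066 (-0.27 without MINO) and -0.44 ± 0.063. Of 68 nuclear genes of oxidative phosphorylation, 1 was higher (1.5%) and 4 lower (5.9%), so the list did not exceed the shares of all genes by more than a fraction of a percent. PSMB9, an immunoproteasome subunit, averaged -0.36 ± 0.073, with 3 of 30 antigen presentation genes higher and 5 lower. CNN2, an actin-binding calponin with one of the 3 smallest adjusted p values of the raised genes (3.97e-08, edgeR), rose by 1.04 ± 0.061, with JEKO at 0.15, MINO at 1.92 and UPN-1 at 1.04 and 0.59 without MINO.

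Several lists did not move alike in the lines. Of 49 interferon response genes, 3 were called higher (6.1%) and 5 lower (10.2%) in the mean, against 6.54% and 5.78% of all genes tested. The effect differed among the lines in 28 of these interferon genes, and the medians were -0.84 (JEKO), 0.71 (MINO) and -0.22 (UPN-1). Their counts were 12 higher and 1 lower without JEKO, and 1 higher and 22 lower without MINO. CCND1 averaged -0.32 ± 0.079 (edgeR adjusted p = 0.0127), with JEKO at -0.68, MINO at 0.23 and UPN-1 at -0.52, and lost its call without JEKO (-0.15, adjusted p = 0.348) and without UPN-1 (adjusted p = 0.28); without MINO it was -0.61. CCND1 in JEKO measured 2407, 2880.0 and 2269 CPM with DMSO and 1250.0, 1939 and 1582 CPM with the inhibitor. CCND1 values in MINO were 1983, 2904 and 2090.0 CPM with DMSO and 2176, 3189 and 2785 CPM with the inhibitor. UPN-1 CCND1 stood at 2852, 2101 and 2120.0 CPM with DMSO and 1980.0, 1483 and 1471 CPM with the inhibitor. CCND1 was thus lower without overlap in JEKO and UPN-1 and higher in each MINO pair. Of 55 MYC target and ribosome biogenesis genes, 6 were lower (10.9%, against 5.78% of all genes tested) and 0 higher, with medians of 0.08 in JEKO and -0.32 in MINO. Of 78 cytosolic ribosomal protein genes 1 was lower (1.3%) and 0 higher, although 57 were below 0 in every line. Of 34 genes of cholesterol and fatty acid synthesis, 0 were called by edgeR or DESeq2, and 2 lay above and 6 below 0 at an unadjusted p under 0.05 in edgeR.

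For the remaining lists, members called higher and lower are read beside 6.54% and 5.78% of all genes tested. Of 29 p53 targets 8 were higher (27.6%) and 4 lower (13.8%), and of 23 cyclins, inhibitors and pocket proteins 4 were higher and 4 lower (17.4% each). Of 26 apoptosis regulators 5 were higher (19.2%) and 1 lower, and of 36 lysosome and autophagy genes 6 were higher (16.7%) and 0 lower. Of 38 genes of glycolysis and hypoxia 1 was higher and 7 lower (18.4%). The counts were 3 and 1 of 31 for NF-kappaB (9.7% higher), 3 and 2 of 16 for DNA and RNA sensing (18.8% higher) and 2 and 0 of 13 for mitochondrially encoded mRNAs (15.4% higher). Monocyte genes gave 1 and 0 of 3 tested (15 listed), and fibroblast, endothelial and epithelial genes 3 and 0 of 5 tested (16 listed), beside the marker sums above. Among the members called higher, 4 of the 8 p53 targets, 2 of the 5 apoptosis regulators, 2 of the 6 lysosome genes and 0 of the 3 NF-kappaB genes had the same sign in every line. In the ATF4, replication, mitosis, repair, silencing and ribosomal protein lists, where edgeR called 0 members higher, 0 were higher at an unadjusted p under 0.05 and DESeq2 called 0. In the lists of histone methylases, ribosome biogenesis and secretion 3, 1 and 1 were higher at that unadjusted p, with 0 called by DESeq2. Of the lists with 0 called lower by edgeR, DESeq2 also called 0, and at an unadjusted p under 0.05 the counts were 2 for homing receptors, 3 for lysosome, 6 for cholesterol and fatty acid synthesis, 1 each for neuronal genes, histones and mitochondrial mRNAs, and 0 for the others.

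Other list members called in the mean with the same sign in every line lost their call when 1 line was left out. Among the raised ones these were CCND2 (1.00, 0.65 and adjusted p = 0.0589 without JEKO), H3C10 (0.91, 0.60 and adjusted p = 0.116 without JEKO), CCR10 (0.90, 0.68 and adjusted p = 0.0643 without MINO), HLA-DOB (0.57, 0.46 and adjusted p = 0.127 without MINO), EGR3 (0.53, 0.25 and adjusted p = 0.412 without MINO), ENO2 (0.46, 0.30 and adjusted p = 0.0769 without UPN-1), MCL1 (0.42, 0.20 and adjusted p = 0.0842 without MINO), CD22 (0.38, 0.22 and adjusted p = 0.218 without MINO) and VAV1 (0.31, 0.22 and adjusted p = 0.0639 without JEKO). CD8A (0.63) was lost without MINO (adjusted p = 0.335) and without UPN-1 (adjusted p = 0.0533), and ZCWPW1 (0.39) without MINO (adjusted p = 0.0728) and without UPN-1 (adjusted p = 0.104). Among the lowered ones they were FBL (-0.30, -0.07 and adjusted p = 0.646 without MINO), LYAR (-0.38, -0.18 and adjusted p = 0.2 without MINO), POLR1E (-0.36, -0.19 and adjusted p = 0.165 without MINO), NLRC5 (-0.33, -0.21 and adjusted p = 0.186 without MINO), ATP5F1D (-0.34, -0.36 and adjusted p = 0.0666 without UPN-1), ZNF274 (-0.45, -0.28 and adjusted p = 0.144 without UPN-1), XRCC2 (-0.47, -0.29 and adjusted p = 0.0993 without MINO) and PFKM (-0.49, -0.05 and adjusted p = 0.792 without MINO). PFKM was -0.73 without JEKO. Opposite-strand exons cover 34.4% of CCR10, 28% of ZCWPW1 and 7.1% of PFKM.

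A further 28 members of the lists lost their call when 1 pair was left out, and all but 1 of them are given here, with the value in parentheses where leaving out a whole line also ended the call. NRXN2 (1.35) lost its call without 1 of the 9 pairs, with the highest adjusted p, 0.125, without MINO replicate 3, and without JEKO (1.52) or UPN-1 (1.72), and was 0.80 without MINO. MT1F (0.97) lost its call without 1 of the 9 pairs, with the highest adjusted p, 0.13, without MINO replicate 2, and without JEKO (1.28) or MINO (0.38). FCER2 (0.91) lost its call without 1 of the 9 pairs, with the highest adjusted p, 0.0949, without JEKO replicate 1, and without MINO (0.80). EPCAM (0.88) lost its call without 1 of the 9 pairs, with the highest adjusted p, 0.054, without UPN-1 replicate 1. These encode a synaptic adhesion protein, a metallothionein, the low-affinity IgE receptor and an epithelial adhesion protein. MEI1 (0.76) lost its call without 2 of the 9 pairs, with the highest adjusted p, 0.0561, without JEKO replicate 3, and without JEKO (0.88) or MINO (0.56). FCRLB (0.65) lost its call without 7 of the 9 pairs, with the highest adjusted p, 0.218, without UPN-1 replicate 3, and without JEKO (0.54) or MINO (0.47). H2AC11 (0.64) lost its call without 1 of the 9 pairs, with the highest adjusted p, 0.05, without UPN-1 replicate 3, and without JEKO (0.48). All 3 were higher in the mean, as were the next. TP53I3 (0.54) lost its call without 6 of the 9 pairs, with the highest adjusted p, 0.0969, without UPN-1 replicate 2, and without JEKO (0.58) or MINO (0.36). STING1 (0.52) lost its call without 4 of the 9 pairs, with the highest adjusted p, 0.0699, without UPN-1 replicate 1, and without JEKO (0.48) or UPN-1 (0.45). NDUFC2 (0.39) lost its call without 7 of the 9 pairs, with the highest adjusted p, 0.113, without MINO replicate 1, and without MINO (0.25) or UPN-1 (0.40). STING1 is the adaptor of cytosolic DNA sensing. MT-CO1 (0.37) lost its call without 7 of the 9 pairs, with the highest adjusted p, 0.151, without UPN-1 replicate 2, and without JEKO (0.50), MINO (0.29) or UPN-1 (0.30). MT-ND6 (0.37) lost its call without 5 of the 9 pairs, with the highest adjusted p, 0.0902, without UPN-1 replicate 1, and without MINO (0.24) or UPN-1 (0.35). ATP6V0D1 (0.25) lost its call without 2 of the 9 pairs, with the highest adjusted p, 0.0724, without UPN-1 replicate 2, and without MINO (0.11) or UPN-1 (0.29). MT-CO1 and MT-ND6 are mitochondrially encoded. SLC39A10 (0.25) lost its call without 5 of the 9 pairs, with the highest adjusted p, 0.151, without UPN-1 replicate 1, and without JEKO (0.11), MINO (0.26) or UPN-1 (0.35). LAMP1 (0.24) lost its call without 5 of the 9 pairs, with the highest adjusted p, 0.0971, without JEKO replicate 2, and without MINO (0.16) or UPN-1 (0.28). KDM2A (0.22) lost its call without 7 of the 9 pairs, with the highest adjusted p, 0.138, without UPN-1 replicate 1, and without MINO (0.16) or UPN-1 (0.22). KDM2A is a demethylase of H3K36. TRAF3 (-0.23) lost its call without 5 of the 9 pairs, with the highest adjusted p, 0.0959, without UPN-1 replicate 1, and without JEKO (-0.12) or UPN-1 (-0.25). POU2AF1 (-0.24) lost its call without 6 of the 9 pairs, with the highest adjusted p, 0.099, without UPN-1 replicate 2, and without JEKO (-0.19) or UPN-1 (-0.21). KMT5A (-0.25) lost its call without 2 of the 9 pairs, with the highest adjusted p, 0.0578, without UPN-1 replicate 2, and without JEKO (-0.22) or UPN-1 (-0.26). These 3 were lower in the mean, as were the rest. RBL1 (-0.27) lost its call without 1 of the 9 pairs, with the highest adjusted p, 0.0655, without UPN-1 replicate 1, and without JEKO (-0.22). RFXAP (-0.30) lost its call without 8 of the 9 pairs, with the highest adjusted p, 0.116, without UPN-1 replicate 1, and without JEKO (-0.39), MINO (-0.11) or UPN-1 (-0.40). RFXAP is a subunit of the factor that turns on MHC class II genes. SUV39H1 (-0.30) lost its call without 3 of the 9 pairs, with the highest adjusted p, 0.0825, without UPN-1 replicate 3, and without JEKO (-0.32) or UPN-1 (-0.31). PDK3 (-0.34) lost its call without 5 of the 9 pairs, with the highest adjusted p, 0.0892, without JEKO replicate 2, and without JEKO (-0.27), MINO (-0.37) or UPN-1 (-0.41). BIRC5 (-0.35) lost its call without 7 of the 9 pairs, with the highest adjusted p, 0.131, without JEKO replicate 1, and without JEKO (-0.36) or UPN-1 (-0.39). BIRC5 encodes survivin. RPS21 (-0.40) lost its call without 4 of the 9 pairs, with the highest adjusted p, 0.0767, without UPN-1 replicate 3, and without MINO (-0.21) or UPN-1 (-0.50). SESN2 (-0.44) lost its call without 6 of the 9 pairs, with the highest adjusted p, 0.0832, without UPN-1 replicate 1, and without JEKO (-0.50) or MINO (-0.26). VEGFA (-0.70) lost its call without 2 of the 9 pairs, with the highest adjusted p, 0.0582, without UPN-1 replicate 2, and without MINO (-0.25). SESN2 is a stress-induced leucine sensor.

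Most genes called at 72 h had the same sign at 24 h. In the same fit on the 24 h libraries, 1228 genes were called higher (7.55% of 16274 tested) and 1074 lower (6.60%). Of the 1125 genes raised at 72 h and tested at 24 h, 1052 had the same sign and 523 were called higher at 24 h as well; of 1021 lowered, 929 had the same sign, 414 were called lower and 4 higher. The 72 h effect minus the 24 h effect was called in 85 genes (0.473% of 17980). Of these, 73 were called at 72 h, 24 higher and 49 lower, and in each the 72 h value lay beyond the 24 h value in the direction of the call; 61 of the 73 had the same sign in every line at 72 h.

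**Figure D5:**
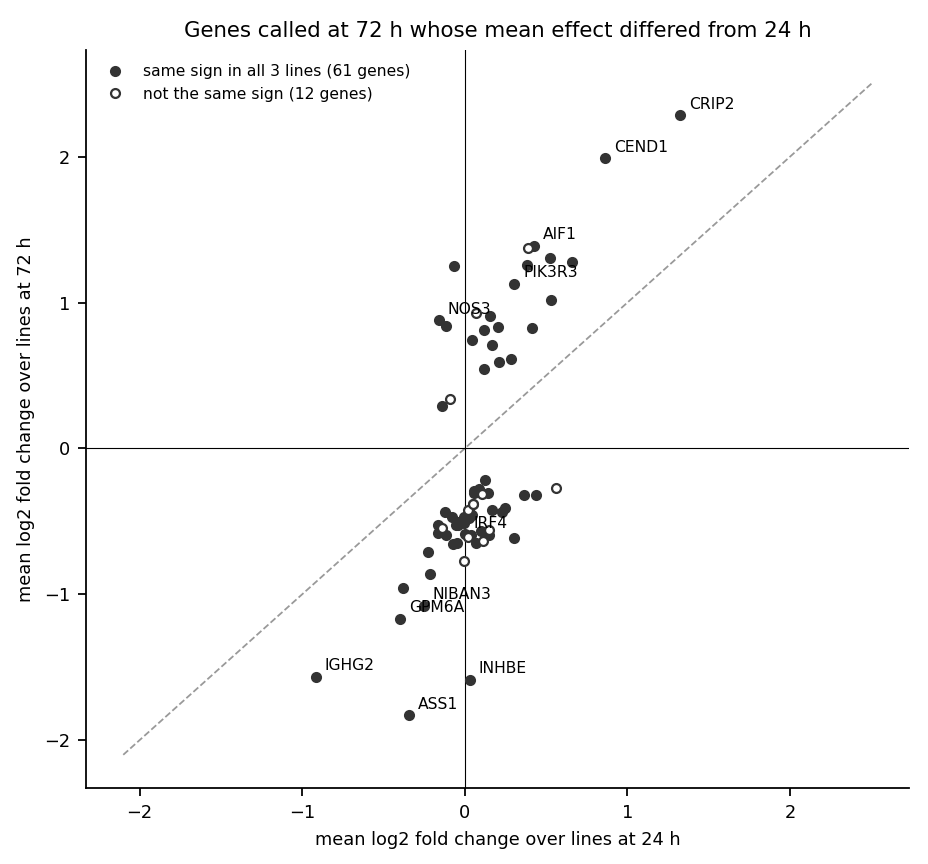
Mean log2 fold change over the 3 lines at 24 h (x axis) and 72 h (y axis) of the 73 genes called at 72 h whose effect differed between the times, with filled points for genes of 1 sign in every line at 72 h and a dashed line where both times are equal. IRF4 lies at 0.00 at 24 h and -0.59 at 72 h.

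Late raised genes had a median of 0.21 at 24 h and 0.89 at 72 h, and late lowered genes 0.03 and -0.52. These genes were picked by a called difference between the times, so a gap between the medians follows from the choice. Not called at 24 h were 13 of the 24 and 36 of the 49. MINO had the largest effect in 20 and 36 of them, and the effect differed among the lines in 13 and 19. The ATF4 list gave 9 of the 49 and the histone list 3 of the 24. IRF4 was among the late genes with 0.00 at 24 h, NFATC1 with -0.04 and CCNG1 with 0.03, against the 72 h values above, and each fell in 9 of 9 pairs at 72 h. These 24 h means average lines of mixed sign. JEKO, MINO and UPN-1 were at -0.05, 0.19 and -0.13 for IRF4 and at 0.24, -0.01 and -0.36 for NFATC1. For CCNG1 they were at -0.04, 0.22 and -0.10. NIBAN3, a B-cell protein named after its values were seen, averaged -0.25 at 24 h and -1.08 ± 0.089 at 72 h, with JEKO at -1.54, MINO at -0.30 and UPN-1 at -1.40. Of the shared raised genes, CEND1 went from 0.86 at 24 h to 1.99, PIK3R3 from 0.30 to 1.13, AIF1 from 0.43 to 1.39 and NOS3 from -0.16 to 0.88. For NOS3 the lines were of mixed sign at 24 h, with JEKO at 0.09, MINO at 0.81 and UPN-1 at -1.38. At 72 h they were at 0.64, 0.98 and 1.01, and NOS3 averaged 2.30 CPM in UPN-1 with DMSO. CD27, a receptor of the TNF family that marks memory B cells and plasma cells, went from 0.21 to 0.84 (0.36 without MINO). Opposite-strand exons cover 42.5% of CD27, which was named after its values were seen, as was PHGDH (-0.38 to -0.95).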

How the data were processed

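RNA sequencing reads of 18 libraries at 72 h (3 lines, GS716054 or DMSO, 3 biological replicates) were analysed, with the 18 libraries at 24 h set beside them. The authors deposited whole-number read counts per Ensembl gene. Per the submitters' processing notes HISAT2 2.2.1, HTSeq 0.13.5 and GRCh38 were used; strand setting and annotation release are not given in the sources used here. The 5 summary lines, among them 43.37% to 45.93% of reads in no feature, were left out. Of 58302 gene IDs, 57532 were named from GENCODE v44, whose positions are given.

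In R 4.3.3, edgeR 4.0.16 quasi-likelihood models (limma 3.58.1; TMM scaling; filterByExpr with a minimum count of 10 and total of 15) had 9 blocks of line by replicate number and a treatment effect per line, leaving 6 residual degrees of freedom. The replicate numbers are the labels' own, and same-numbered DMSO and treated libraries deviated together from their group means (r = 0.227 to 0.568 over 9 pairs), so they were treated as pairs. Libraries of unlike number within a line gave r = -0.489 to 0.259. In MINO, DMSO replicate 3 deviated with treated replicate 1 (0.259) more than with treated replicate 3 (0.227). The pairing of MINO replicates 1 and 3 is thus less certain. Adjusted p values (Benjamini-Hochberg) run over every gene in the fit, and 0.05 was the limit for a call. The SE is the absolute log2 fold change over the square root of F, and it does not measure the spread between lines. CPM use TMM-scaled library sizes. A limit of 3 counts covers counting error only. The code was tested on simulated data.

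Named are the KDM5 genes; of genes called in each line, the 12 per direction with the largest smallest effect at a mean log2 CPM of at least 1; up to 3 list members per direction called with 1 sign; and the 3 smallest p per direction. The rest of the genes called in each line, and those so marked, were named after their values were seen. The lists, which hold known members of each pathway, and the question itself were chosen with earlier results of these data known. Alternatives were DESeq2 1.42.0, DESeq2 size factors, total reads, no filter, a minimum count of 50, no pairing, all 36 libraries, and leaving out each pair or line. A few genes are not reported here.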

Additional observations from a re-analysis of the deposited data

Results flagged for a closer look

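The size of the 72 h effect differed among JEKO, MINO and UPN-1 by a test of the difference itself in the following named genes, given with edgeR's adjusted p of that test over all genes. Among genes raised in the mean they were ADGRB2 (0.0452), AIF1 (0.00269), BTG2 (0.00116), CD27 (6.26e-04), CD79A (0.012), CD82 (0.00729), CNN2 (1.74e-05), CNR2 (0.0053), CRIP2 (0.0277), H2AC6 (1.06e-04), H2BC5 (2.85e-04), HMOX1 (0.0283), KCNH2 (0.00269), LGALS3BP (1.21e-04), LINC00426 (0.0055), MCL1 (0.0257), MXD4 (0.0168), SLC15A3 (0.00708) and SPOCK2 (0.00381). Among genes lowered in the mean they were ASS1 (3.64e-05), ATF3 (0.00822), ATF4 (0.0200), CCND1 (0.0172), FBL (0.0326), GPM6A (0.00138), IARS1 (0.0158), IGHG1 (0.0152), IGHG2 (3.79e-06), INHBE (8.28e-05), NIBAN3 (0.00382), PFKM (8.28e-05), PHGDH (6.76e-04) and SLC6A9 (0.00181).

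The mean effect over the lines differed between 72 h and 24 h in further named genes, with edgeR's adjusted p of the difference in parentheses. Among the raised genes, all with the larger effect at 72 h, they were AIF1 (0.0182), CD27 (0.0182), CD52 (0.0454), CEND1 (0.00296), CRB2 (0.0358), CRIP2 (0.0368), H2AC6 (0.012), H2BC5 (0.018), METTL7A (0.0461), MLLT11 (0.0182), NOS3 (0.00331), PIK3R3 (0.00694) and SPOCK2 (0.0419). Among the lowered genes, all with the lower value at 72 h, they were ASS1 (1.02e-04), ATF5 (0.0182), CCNG1 (0.018), CDT1 (0.0406), EDEM1 (0.0419), GPM6A (0.00129), IGHG2 (0.0299), INHBE (0.0023), IRF4 (0.00395), NFATC1 (0.00342), NIBAN3 (4.59e-04), PHGDH (0.0206), SDHA (0.0494) and SESN2 (0.0495). SESN2 changed sign between the times. It was called higher at 24 h, with a mean of 0.23 (edgeR adjusted p = 0.0243), and averaged -0.44 at 72 h.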

How the results depend on the processing

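The counts of genes called higher and lower in the mean effect stayed within 1.5 times of 1158 and 1023 with DESeq2 size factors, total gene reads, no low-count filter, a minimum count of 50, DESeq2, all 36 libraries in 1 fit, and without JEKO or UPN-1. Without MINO 694 were higher, and leaving out 1 pair gave 737 to 1211 higher and 565 to 1106 lower, the fewest without UPN-1 replicate 1. Genes called higher in each of 3 lines numbered 21 with total gene reads, 69 without a filter, 49 with all 36 libraries and 6 to 46 when 1 pair was left out. Those called lower in each line numbered 17 without a filter, 14 with all 36 libraries and 0 to 10 when 1 pair was left out; the 0, without UPN-1 replicate 1, compares with 44 genes at an unadjusted p under 0.05 in each line in edgeR. No count over 3 lines exists where a line is left out. Without replicate 2 of every line, an alternative chosen after the data were seen, 530 were lower in the mean and 4 in each line. The cause of these shifts was not tested, beyond the loss of libraries where libraries were left out.

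The pairing by replicate number carried most calls. With no replicate block 248 genes were called higher and 72 lower in the mean, all 320 among the paired calls, and edgeR called 0 higher and 0 lower in each of 3 lines, where 57 and 4 had an unadjusted p under 0.05 in every line. Of the 39 genes called in each line, 32 kept their call in the mean without it.

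Of 140 named genes called in the mean, 88 lost the call with no replicate block, 31 without MINO, 25 without UPN-1 and 24 without JEKO, 28 without at least 1 pair, 18 without replicate 2 of every line and 3 with DESeq2. None of the 142 named genes tested changed sign where called, and 49 kept their side of the threshold in every setting. Depth of 8784815 to 14970876 gene reads limits most the genes near 1 CPM, such as CNR2 in UPN-1.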
